A study of Mus musculus with 18 samples.

Results

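The first neonatal step in the mouse ileum, from postnatal day 4 to day 7, was described across 8630 genes on 6 of the 18 arrays of a postnatal time course. The members are the 3 arrays of day 7 and the 3 of day 4, chosen by the age in their titles, and each gene was represented by its brightest probe set, judged by the mean of all 18 arrays. Each array holds RNA from the ileum of 1 untreated C57BL/6 mouse, an inbred laboratory strain, and the tissue piece kept every layer of the wall, so the RNA is a mixture of mucosa, muscle coat, nerve plexus and blood vessels. No litter, sex or batch is named in the labels. The other 12 arrays, from days 9, 11, 24 and 32, supplied the shared estimate of the spread and the later levels.

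In the first days after birth the mouse ileum is a milk-fed organ. Its enterocytes take up milk proteins whole through apical endocytosis and digest them in large lysosomes, pass maternal antibody across the epithelium, and absorb milk fat, which is repacked with apolipoproteins for export. Crypts, Paneth cells and the machinery that returns bile acids are still immature, the muscle coat and its nerve plexus are still growing, and bacteria have only begun to settle.

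The 6 arrays read as ileal epithelium plus wall. On a log2 scale villin (Vil1) averaged 10.69 on day 4 and 10.76 on day 7, the liver-intestine cadherin Cdh17 10.83 and 10.90, and the galectin Lgals4 12.53 and 12.49. Of the ileal markers, Fabp6 stood at 8.30 and 7.56, while the bile acid transporter Slc10a2 lay at 2.24 and 2.16, below the array medians of 3.88 to 3.97, where a level cannot be told from background. Of 9 markers of other gut segments 2 reached log2 6 on these days, the chloride exchanger Slc26a3 at 9.30 on day 4 and 9.10 on day 7 and the trefoil factor Tff1 at 6.79 and 6.71. The others lay at or below 4.31 as means of either day, among them Gast, Pdx1 and Car1 at 3.20 or less. Across the 8630 genes tested, arrays correlated at 0.968 to 0.988 within day 4, 0.980 to 0.994 within day 7 and 0.966 to 0.991 between the days. The male pattern of low Xist with high Eif2s3y appeared on 1 of 3 arrays of each day. The array's hybridization controls fell into a higher group (9.31 to 9.34 on 2 arrays of day 4 and 1 of day 7) and a lower one (8.49 to 8.71 on 1 array of day 4 and 2 of day 7).

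Few genes were called between the days. Annexin A8 (Anxa8), the serine- and arginine-rich nuclear protein Rsrp1, the muscle-wasting ubiquitin ligase component Fbxo32 and the zinc finger protein Thap2 rose, and the CD7 ligand Sectm1b, the complex I assembly factor Ndufaf4 and the phospholipid hydrolase Abhd3 fell. That is 7 of 8630 genes, or 0.0811%, at an adjusted p below 0.05 (limma, Benjamini-Hochberg over all genes tested), with 4 higher (0.0463%) and 3 lower (0.0348%). Quantile normalization on top of the deposited values gave 3 higher and 5 lower, and cyclic loess 2 and 2. At an unadjusted p below 0.05 there were 512 (5.93%). The count rested on single arrays. Without day 4 replicate 2, day 7 replicate 2 or day 7 replicate 3 limma called 0 genes, with 341, 412 and 389 at an unadjusted p below 0.05, and without day 7 replicate 1 it called 3. With hybridization group as a block Sectm1b, Rsrp1 and Anxa8 were the 3 genes called. A fit on the 6 arrays alone called 0, with 610 at an unadjusted p below 0.05. The 7 calls were not equally stable. Over the alternatives Sectm1b lost its call in 4 of 19, Anxa8 in 5 of 18 and Rsrp1 in 5 of 19. Ndufaf4 lost it in 11 of 18, Abhd3 in 13 of 19, Fbxo32 in 13 of 18 and Thap2 in 16 of 17.

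**Figure D1:**
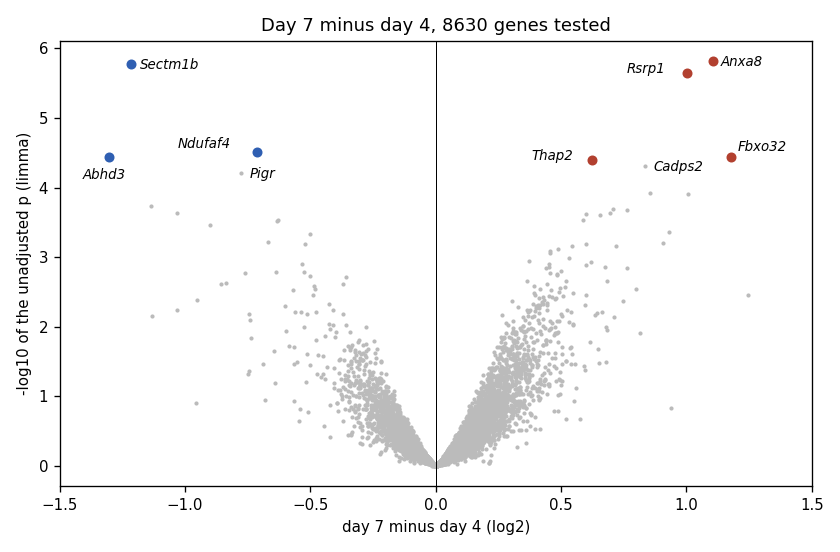
Log2 difference between day 7 and day 4 (horizontal) against -log10 of the unadjusted limma p (vertical) for the 8630 genes tested, with the 4 genes that rose in red and the 3 that fell in blue. Cadps2 and Pigr are labelled among the grey genes as the closest that did not pass, at adjusted p = 0.0534 and 0.0592.

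Anxa8 encodes a calcium-dependent, phospholipid-binding annexin. Its log2 level was 6.61, 6.24 and 6.48 on day 4 and 7.36, 7.69 and 7.60 on day 7. Every day 7 array lay above every day 4 array, and the rise was 2.15-fold (log2 difference 1.10 ± 0.16, SE; limma adjusted p = 0.00655). A second probe set of Anxa8 gave 0.75 ± 0.26, also without overlap. The level then came down to 6.97 ± 0.05 on day 9 and 6.58 ± 0.29 on day 11 (SD, n = 3), so day 7 was the highest of the 6 ages. Both later intervals differed from the first in a direct test: the step from day 4 to 7 exceeded that from day 7 to 9 by 1.68 ± 0.27 (limma adjusted p = 0.0138) and that from day 9 to 11 by 1.50 ± 0.22 (0.0112). Quantile normalization ended the first of these calls (adjusted p = 0.0804), as did leaving out day 7 replicate 2 (0.256), day 7 replicate 3 (0.163) or day 9 replicate 2 (0.0506). The second was lost with hybridization group as a block (0.0609), and without day 4 replicate 2, day 7 replicate 2, day 9 replicate 1 or day 11 replicate 3 (0.0518 to 0.0617).

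Rsrp1 was bright on every array. It read 9.17, 8.91 and 9.11 on day 4 and 9.90, 10.19 and 10.11 on day 7, with no overlap, a rise of 1.00 ± 0.15 (2.00-fold; limma adjusted p = 0.00655). Both of its other probe sets moved the same way without overlap, by 1.09 ± 0.36 and 0.85 ± 0.15. Unlike Anxa8 it held the level it had reached, at 10.21 ± 0.21 on day 9, 9.98 ± 0.27 on day 11 and 9.76 ± 0.16 on day 24. Its step from day 4 to 7 exceeded that from day 9 to 11 by 1.23 ± 0.21 (limma adjusted p = 0.0381), but not detectably that from day 7 to 9 (0.86 ± 0.25, adjusted p = 1.00). The first of these calls was lost with hybridization group as a block (adjusted p = 0.0609), with Xist as a covariate (0.0774), with only the 12 arrays of days 4 to 11 (0.0996), and without 8 of the 12 single arrays of those days in turn (0.0612 to 0.151).

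Fbxo32, also called atrogin-1, marks proteins for degradation in wasting muscle. Its levels were 5.63, 4.85 and 5.55 on day 4 and 6.39, 6.46 and 6.70 on day 7, so only the day 7 arrays reached the filter level of log2 6. The difference was 1.18 ± 0.22 (2.26-fold; limma adjusted p = 0.0493), and the other probe sets gave 1.07 ± 0.39 and 0.70 ± 0.15 without overlap. It stayed near that level on day 9 (6.71 ± 0.25) and day 11 (6.91 ± 0.38). Thap2 was dimmer still, at 4.96, 4.89 and 5.05 on day 4 and 5.72, 5.39 and 5.64 on day 7. None of those 6 arrays reached log2 6; the gene was tested because later ages do. Its rise of 0.62 ± 0.11 (limma adjusted p = 0.0493) was not seen on its second probe set, which lay below the array medians and read -0.23 ± 0.14.

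Sectm1b, a secreted and transmembrane protein that binds CD7 on lymphocytes, showed the clearest fall. Levels of 8.06, 8.56 and 8.23 on day 4 gave way to 7.29, 7.00 and 6.92 on day 7. The ranges were apart by more than the spread within either day, and the log2 difference was -1.21 ± 0.17 (2.32-fold lower; limma adjusted p = 0.00655), with -0.90 ± 0.17 on its second probe set. It reached 6.60 ± 0.32 on day 9 and 6.69 ± 0.22 on day 11, then rose to 9.75 ± 0.24 on day 24.

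Abhd3, a hydrolase of membrane phospholipids, read 9.19, 8.90 and 8.44 on day 4 and 7.40, 7.49 and 7.74 on day 7. Its log2 difference of -1.30 ± 0.24 was the largest fall of the 8630 genes (2.47-fold lower; limma adjusted p = 0.0493). Like Sectm1b it was lower still on day 9 (6.90) and back at 8.82 on day 24. Ndufaf4, needed to assemble respiratory complex I, was tight on day 4 at 7.80, 7.73 and 7.80 and lay at 7.14, 6.83 and 7.21 on day 7. Its fall of 0.71 ± 0.13 (1.64-fold; limma adjusted p = 0.0493) read as -0.20 ± 0.22 with overlapping arrays on a dimmer second probe set, and the mean of both gave -0.46 (adjusted p = 0.649).

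**Figure D2:**
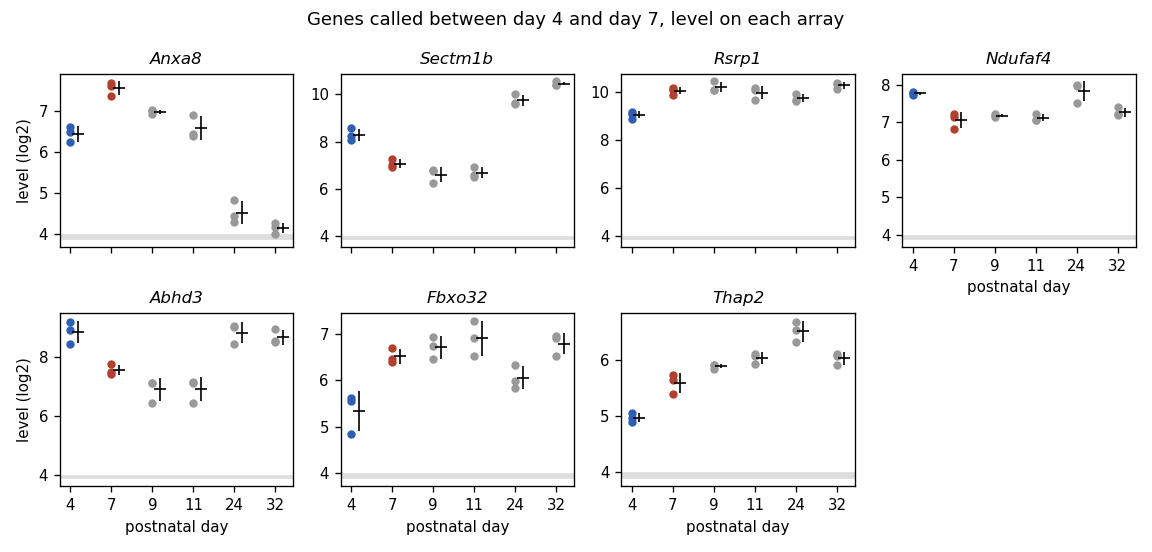
Log2 level of the 7 called genes on every array at each postnatal day (ages evenly spaced; day 4 blue, day 7 red, other days grey), with the mean and SD of 3 arrays in black and the range of array medians as a grey band. Day 4 and day 7 do not overlap in any panel, Anxa8 comes down again after day 7, and Rsrp1 stays near 10 from day 7 on.

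From day 11 to day 24, the interval that holds weaning, 6 of the 7 genes were called again: 1 (Thap2) in the direction of the first step and 5 in the opposite direction, against 59.2% of all genes called in that interval. Sectm1b (3.06), Abhd3 (1.91) and Ndufaf4 (0.71) rose there on the log2 scale, and Anxa8 (-2.06) and Fbxo32 (-0.86) fell. Rsrp1 was not called, at -0.22.

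The promoters of the 3 genes with the smallest p are shown because these genes moved at the same age in opposite directions. The RefSeq promoter table for GRCm38.p6 held 5 of the 7 called genes, each with 1 start site, and the 250 bases before the start were searched on both strands for 6 words. These were the TATA box TATAAA, the box known as CCAAT, the GC box GGGCGG, the forkhead factor core TGTTTAC, the E-box CACGTG and the cAMP response element TGACGTCA. Capitals mark every match, and matches may overlap. Anxa8 lies on the plus strand at chr14:34085729-34085978, Rsrp1 on the plus strand at chr4:134923375-134923624 and Sectm1b on the minus strand at chr11:121063570-121063819.
Anxa8: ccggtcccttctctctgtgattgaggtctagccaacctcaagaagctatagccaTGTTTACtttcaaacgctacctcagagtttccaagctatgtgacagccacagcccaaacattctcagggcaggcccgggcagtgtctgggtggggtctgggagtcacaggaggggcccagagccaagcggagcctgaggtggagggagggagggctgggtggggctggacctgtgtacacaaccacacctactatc
Rsrp1: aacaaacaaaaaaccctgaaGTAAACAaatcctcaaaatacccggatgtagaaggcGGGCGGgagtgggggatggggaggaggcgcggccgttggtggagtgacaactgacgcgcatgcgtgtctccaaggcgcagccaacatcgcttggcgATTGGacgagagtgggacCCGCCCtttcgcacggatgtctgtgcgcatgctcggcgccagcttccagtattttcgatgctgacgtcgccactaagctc
Sectm1b: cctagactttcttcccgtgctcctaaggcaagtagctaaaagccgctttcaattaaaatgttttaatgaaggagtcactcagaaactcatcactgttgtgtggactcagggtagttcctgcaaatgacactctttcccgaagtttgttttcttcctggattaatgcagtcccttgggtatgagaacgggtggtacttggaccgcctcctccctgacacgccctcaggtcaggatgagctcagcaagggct
The Anxa8 window holds 1 match, the forkhead word, whose first base lies 196 bases before the start. The Rsrp1 window also holds that word, on the opposite strand at 230 bases, with 1 CCAAT box at 98 and GC boxes at 194 and 80. The Sectm1b window holds none of the 6 words. Of 32851 promoter windows of this length, 3.17% hold the forkhead word, 33.8% a CCAAT box, 32.7% a GC box, 12.4% TATAAA, 6.02% the E-box and 1.55% the cAMP response element. Among the 9080 windows of tested genes, the shares were 2.3%, 34.7%, 59.0%, 6.82%, 8.70% and 2.52% in the same order.

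Differences elsewhere were small. Of the 8630 genes, 119 (1.38%) differed by at least 0.5 on the log2 scale and 11 by at least 1, that is 2-fold, 5 higher (0.0579%) and 6 lower (0.0695%). Clca4a, of a family of secreted proteins linked to chloride currents, had the largest rise (1.24 ± 0.37, adjusted p = 0.405 by limma) but was spread over 5.53 to 6.52 on day 4 and 6.78 to 7.83 on day 7. Dmbt1, a mucosal scavenger protein, read 7.42, 7.66 and 7.20 and then 6.57, 6.02 and 6.29 (-1.13 ± 0.37, adjusted p = 0.481). Both were named after their values were seen.

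Several genes did not pass the threshold, at limma adjusted p from 0.0534 to 0.201. Cadps2, which primes dense-core vesicles, read 4.71, 4.07 and 4.66 on day 4 and 5.29, 5.19 and 5.47 on day 7 (0.84 ± 0.16). Crebrf, a negative regulator of the stress factor CREB3, read 6.36, 6.29 and 6.62 and then 7.16, 7.48 and 7.19 (0.85 ± 0.17, limma adjusted p = 0.0976). Etfbkmt, a methyltransferase that modifies electron transfer flavoprotein, differed by 1.00 ± 0.21 at the same adjusted p, all of its 6 levels lying below log2 6. Further genes above day 4 on all arrays were the Rab27 effector Exph5 (0.71 ± 0.15), the fibulin Efemp1 (0.76 ± 0.16), the ubiquitin ligase adapter Klhl24 (0.70 ± 0.15), Gm20300 (0.60 ± 0.13) and the zinc finger gene Zfp467 (0.65 ± 0.14). Below day 4 on all arrays were Paqr9, of the progestin and adiponectin receptor family (-1.14 ± 0.24), Cdr2 (-1.03 ± 0.22), the lysosomal arylsulfatase Arsg (-0.63 ± 0.14) and the stress-induced growth arrest gene Gadd45a (-0.63 ± 0.14). So were the cytidine deaminase Cda (-0.90 ± 0.20), the cyclin relative Ccnjl (-0.50 ± 0.12), Tlcd2 (-0.67 ± 0.16) and the goblet cell lectin Zg16 (-0.52 ± 0.13), whose level of 4.68 on day 4 was close to the array medians. The adjusted p of the genes in the last 2 sentences ran from 0.120 to 0.201. Cadps2, Efemp1 and Cda, like Etfbkmt, stayed below log2 6 on all 6 arrays of these days.

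Pathways were read through 61 gene lists, 59 of which had a tested member. Limma called 0 of their 914 distinct tested members, with 58 (6.35%) at an unadjusted p below 0.05. The values below therefore describe levels and passed no test. They are set against all 8630 genes: 743 (8.61%) had all day 7 arrays above all day 4 arrays and 334 (3.87%) below, 57.9% had a positive difference and the median difference was 0.03. That lean upward moved with the scaling: quantile normalization turned the counts to 495 and 519 and the median to -0.0013, median centring to 571 and 481, and cyclic loess to 513 and 537. Members named beside the 2 with the smallest p were chosen after their values were seen. Of the 69 named genes that were not called, 22 had a difference that some alternative moved by over 1.5 times.

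**Figure D3:**
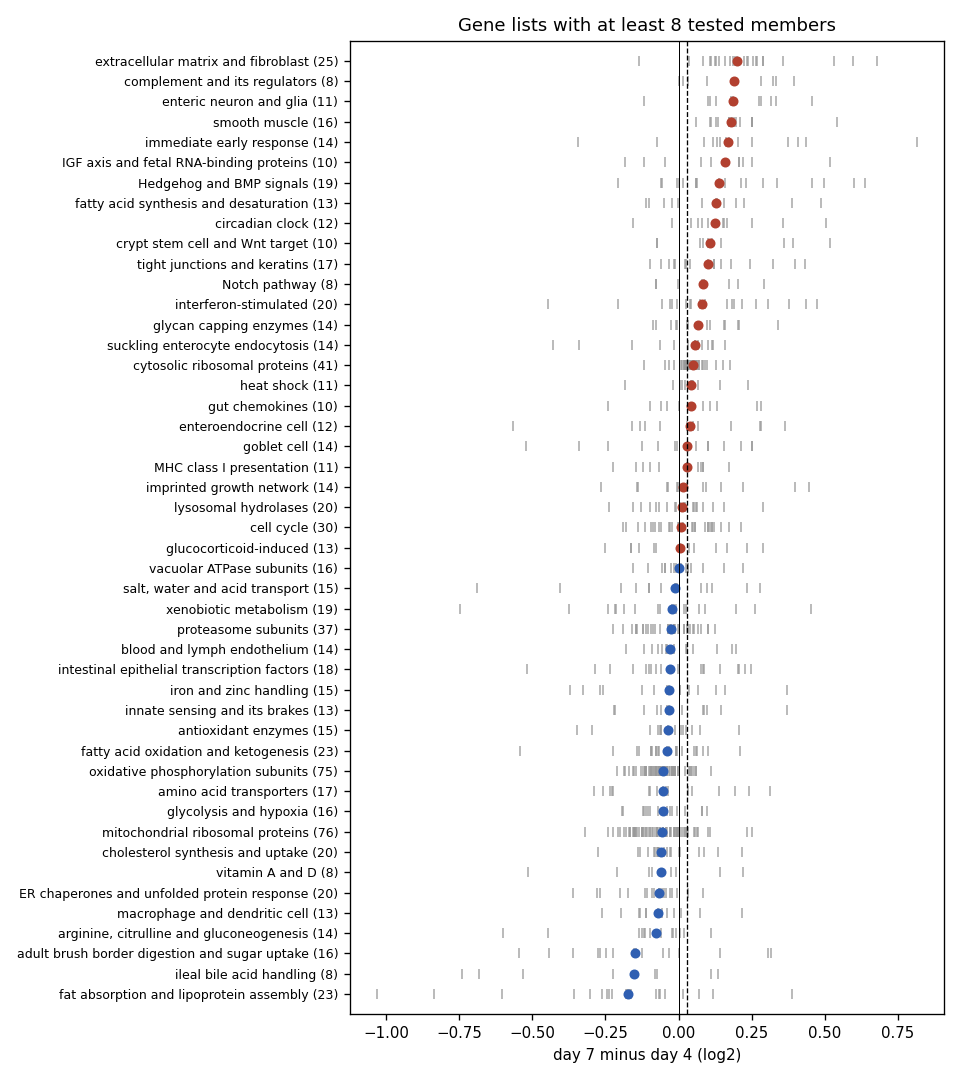
Log2 difference between day 7 and day 4 for each tested member (grey ticks) and the median (red above 0, blue below) of the 47 lists with at least 8 tested members, whose number stands in brackets; the dashed line is the median of all genes. The lists for matrix, complement, enteric nerve and smooth muscle lie at the top, at 0.18 to 0.20, and those for fat absorption, bile acid handling and brush border at the bottom, at -0.15 to -0.17.

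Genes of the gut wall stood slightly higher on day 7. Of 25 tested matrix and fibroblast genes 24 had positive differences, 11 lay above day 4 on all arrays and 1 below, and the median was 0.20. Elastin (Eln), the fibre of elastic tissue, read 7.99, 8.71 and 8.39 on day 4 and 8.80, 9.12 and 9.22 on day 7 (0.68 ± 0.24, SE). Other genes of elastic fibres lay beside it, the microfibril protein Mfap5 at 0.60 ± 0.18 and the crosslinking enzyme Loxl1 at 0.53 ± 0.18, with Lox, a second crosslinking enzyme, at 0.36 ± 0.17. The fibrillar collagen genes Col1a2 (0.27 ± 0.16) and Col3a1 (0.19 ± 0.15) and the basement membrane gene Col4a1 (0.04 ± 0.20) differed less. The one gene below day 4 was Fbn2, a fibrillin of fetal elastic fibres, at -0.13 ± 0.17.

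All 16 tested smooth muscle genes had positive differences, with a median of 0.18, and 6 lay above day 4 on all arrays, 2 under median centring. Phospholamban (Pln), the brake on the calcium pump of muscle, read 5.78, 5.46 and 5.58 and then 6.19, 6.04 and 6.21 (0.54 ± 0.13), without overlap. The contractile genes differed by far less: calponin (Cnn1) by 0.25 ± 0.15, transgelin (Tagln) by 0.17 ± 0.11 and smooth muscle actin (Acta2) by 0.11 ± 0.10. Among 11 nerve and glia genes 10 were positive and 3 lay above, with a median of 0.19 (0.068 without day 4 replicate 1 and 0.29 without day 4 replicate 3), led by the neuronal calcium-binding protein Calb2 at 0.46 ± 0.11 and the neuropeptide galanin (Gal) at 0.33 ± 0.14. Endothelial genes did not share this, with a median of -0.03 over 14, which changed sign in 3 of 12 alternatives, and 0 of 14 apart in either direction.

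The mean level of all matrix markers was 8.74 to 8.91 on the day 4 arrays and 8.99 to 9.15 on day 7, that of smooth muscle 9.04 to 9.16 and 9.23 to 9.32, and that of nerve and glia 5.55 to 5.65 and 5.70 to 5.82. The days did not overlap in any of these 3. In RNA from whole tissue, more cells of a type and more RNA per cell cannot be told apart. The higher hybridization group gave a matrix median of 0.31 and the lower one 0.08, against 0.19 and 0.18 for smooth muscle. The higher group sets 1 array of day 7, with the male pattern of Xist, against 2 of day 4 without it. In the lower group the 1 array of day 4 has the male pattern and the 2 of day 7 do not. Within each group age and sex therefore cannot be told apart. The part of the hybridization group was not tested for these medians beyond a fit with the group as a block, which kept all 3 medians positive. From day 7 to 9, an interval that shares the day 7 arrays, the medians were -0.08, -0.12 and -0.13.

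Signals between epithelium and mesenchyme leaned the same way. Epithelial hedgehog instructs the mesenchyme beneath, and BMP ligands made there restrain crypts and switch on Id genes. Of 19 tested members 15 were positive, 4 lay above day 4 on all arrays and 0 below, with a median of 0.14. Quantile normalization and cyclic loess gave 4 and 1, and the median ran from 0.073 without day 4 replicate 2 to 0.21 without day 7 replicate 2. The ligand Ihh read 5.83, 6.04 and 6.16 on day 4 and 6.67, 6.72 and 6.56 on day 7 (0.64 ± 0.21). Ptch1, hedgehog receptor and target, differed by 0.34 ± 0.13 with overlapping arrays, and Gli3 by -0.21 ± 0.14. The BMP target Id1 read 6.96, 7.17 and 7.35 and then 7.80, 7.92 and 7.55 (0.60 ± 0.14), Id3 differed by 0.45 ± 0.12 and the ligand Bmp5 by 0.50 ± 0.23, while Bmp4 stayed at 0.01 ± 0.19. Crypt stem cell genes had a median of 0.11 over 10 members with 1 above, 0 under quantile normalization, median centring and cyclic loess. That median was 0.017 without day 4 replicate 2 and 0.17 without day 7 replicate 3. Lgr5, the stem cell receptor, read 5.80, 5.25 and 5.54 and then 5.99, 5.68 and 6.47 with overlap (0.52 ± 0.22), and Tnfrsf19 differed by 0.39 ± 0.15. The 30 cell cycle genes had a median of 0.0090, which changed sign in 5 of 12 alternatives.

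Fat absorption genes stood lower on day 7. Of 23 tested, 19 had negative differences, 7 lay below day 4 on all arrays and 2 above, and the median was -0.17, or -0.10 without day 7 replicate 3. Fabp1, the liver-type fatty acid binding protein of enterocytes, went from 12.70, 12.75 and 12.14 to 11.36, 11.32 and 11.81 (-1.03 ± 0.33, limma adjusted p = 0.468). The fatty acid receptor Cd36 read 8.01, 7.82 and 7.48 and then 6.97, 6.74 and 7.09 (-0.84 ± 0.24), and the intestinal fatty acid binding protein Fabp2 read 13.04, 13.07 and 12.91 and then 12.65, 12.60 and 12.70 (-0.36 ± 0.10). Day 4 and day 7 did not overlap in any of the 3. The lipoprotein gene Apoc2 differed by -0.60 ± 0.19 and the chylomicron assembly protein Mttp by -0.30 ± 0.13. Apoa1 (-0.05 ± 0.10) and Apoa4 (-0.06 ± 0.24), among the brightest genes of the array, did not move beyond their error. The 2 genes above day 4, Abcg8 at 0.39 ± 0.12 and Abcg5 at 0.12 ± 0.11, form the pump that returns sterols to the lumen.

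Bile acid genes were lower in 6 of 8. Fabp6, the ileal bile acid binding protein, read 8.25, 8.38 and 8.28 on day 4 and 7.83, 7.25 and 7.61 on day 7 (-0.74 ± 0.25, limma adjusted p = 0.522) and went on down to 6.48 ± 0.59 on day 9 and 5.77 ± 0.50 on day 11. Slc51b, a subunit of the basolateral bile acid exporter, read 8.14, 8.35 and 8.19 and then 7.92, 7.47 and 7.70 (-0.53 ± 0.14), whereas the other subunit, Slc51a, differed by -0.08 ± 0.18. The hormone Fgf15, which bile acids induce in ileum, read 7.65, 8.0 and 8.18 and then 7.06, 7.61 and 7.12 (-0.68 ± 0.41), and their receptor Nr1h4 differed by 0.11 ± 0.14. Fabp6, Slc51b and Fgf15 did not overlap between days. The list median was -0.15, moved to -0.34 by cyclic loess, -0.26 by hybridization group as a block, -0.30 without day 4 replicate 1 or day 7 replicate 1, -0.099 without day 4 replicate 2 and -0.083 without day 7 replicate 3.

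**Figure D4:**
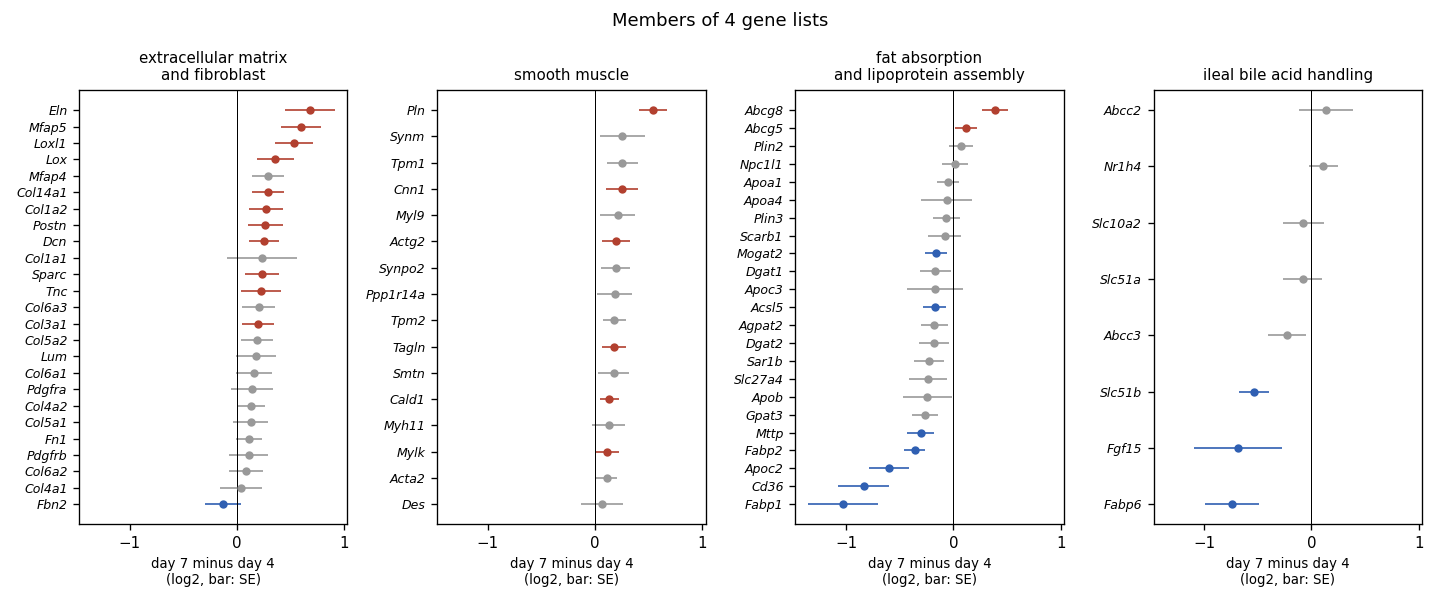
Log2 difference between day 7 and day 4 (point) with its SE (bar) for each tested member of 4 lists; red points had all day 7 arrays above all day 4 arrays, blue points all below, and grey points overlapped. Matrix and smooth muscle genes lie almost wholly right of 0, while 19 of 23 fat absorption genes lie left of it.

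Brush border genes had a median of -0.15 over 16 (-0.26 under cyclic loess), with 5 below and 1 above. The glucose transporter Slc5a1 was tight on both days, at 9.85, 9.86 and 9.81 and then 9.56, 9.58 and 9.56 (-0.28 ± 0.10), and the peptidase Anpep differed by -0.44 ± 0.16. The gene above was maltase-glucoamylase (Mgam), at 9.99, 9.96 and 9.93 and then 10.23, 10.34 and 10.23 (0.31 ± 0.09). Lct, the milk sugar lactase, read 11.23, 11.62 and 11.42 and then 11.13, 11.04 and 11.08, below without overlap. The difference was -0.34 ± 0.35, an SE that draws on the spread of Lct at all 6 ages and not of these 6 arrays alone. Trehalase (Treh, -0.05 ± 0.19) and Arg2 (-0.12 ± 0.22), genes of the weaned gut, lay under log2 3 on all 6 arrays. Retinol-binding Rbp2 went from 10.81, 10.88 and 10.62 to 10.32, 10.16 and 10.28 (-0.52 ± 0.17).

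Genes of the suckling enterocyte differed little. The list for suckling enterocyte endocytosis, which also held the lactase gene Lct, had a median of 0.06 over 14, with 0 above and 2 below. That median changed sign in 2 of 12 alternatives. Folr1 (-0.06 ± 0.16), Meltf (0.07 ± 0.22), Mamdc4 (0.08 ± 0.20) and the cobalamin receptor Cubn (0.10 ± 0.24) differed by less than their errors, as did Prdm1, the repressor that keeps the suckling state (0.11 ± 0.12). Lct, described above, was 1 of the 2 below, and the other was Fcgrt, the neonatal Fc receptor that carries maternal antibody, at 11.88, 12.20 and 12.14 and then 11.78, 11.83 and 11.33 (-0.43 ± 0.15; -0.27 without day 7 replicate 3). Lysosomal hydrolases had a median of 0.01 over 20, which changed sign in 7 of 12 alternatives, with Man2b1 at 0.29 ± 0.13. Igf2, the fetal growth factor, stood at 10.19 ± 0.20 and 10.18 ± 0.13 (SD, n = 3).

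Metabolic lists differed little. The gluconeogenic genes G6pc (-0.60 ± 0.21) and Pck1 (-0.45 ± 0.39) lay below day 4 on all arrays, in a list of 14 with a median of -0.08 (-0.030 without day 4 replicate 3, -0.12 with hybridization group as a block). Oxidative phosphorylation subunits were negative in 66 of 75 with a median of -0.05, and mitochondrial ribosomal proteins in 59 of 76 with -0.06. Both medians kept their sign under every scaling tried. In both lists the mean over members overlapped between the arrays of day 4 and day 7. The SD of that mean within a day, 0.059 and 0.078, exceeded the size of the median. Cytosolic ribosomal proteins were positive in 37 of 41 at 0.05, with 6 above day 4, 0 under median centring. The desaturase Scd2 differed by 0.39 ± 0.15. The salt, water and acid transport list had a median of -0.01 over 15, with 1 above day 4 on all arrays and 2 below. Amino acid transporters had -0.05 over 17, with 1 above and 4 below, and iron and zinc genes -0.03 over 15, with 1 and 2. Below were the sodium-proton exchanger Slc9a3 (-0.69 ± 0.30), the sodium channel subunit Scnn1a (-0.41 ± 0.18) and the amino acid carriers Slc3a1 (-0.29 ± 0.11) and Slc3a2 (-0.23 ± 0.09). The iron transporter Slc11a2 (0.37 ± 0.13) was above.

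No defence gene was called higher in this step, in which 4 of all 8630 genes (0.0463%) were. Pigr, which carries IgA across the epithelium, read 8.96, 9.56 and 9.20 on day 4 and 8.71, 8.35 and 8.34 on day 7 (-0.78 ± 0.15, limma adjusted p = 0.0592), and its second probe set gave -0.83 ± 0.19. The microbe-induced lectins varied between mice: Reg3g read 6.34, 4.72 and 6.00 and then 4.82, 4.53 and 4.85 (-0.96 ± 0.59), and Reg3b 9.41, 8.14 and 8.35 and then 8.38, 7.98 and 8.64 (-0.30 ± 0.40). Both overlapped between days. Complement genes were positive in 8 of 8 with a median of 0.19 (0.097 with no filter on dim genes, 0.10 with hybridization group as a block and 0.30 without day 7 replicate 3) and 3 above, among them the C1 inhibitor Serping1 at 0.32 ± 0.13. Interferon-induced genes had 6 above and 1 below of 20, 3 and 1 under quantile normalization, with Usp18 at 0.47 ± 0.32 and Ifi27l2a at -0.45 ± 0.21. T cell, B cell and granulocyte markers were mostly dim, with 1 of 18, 2 of 13 and 1 of 18 reaching log2 6 on these days. Immediate early genes had a median of 0.17 over 14 (0.31 without day 4 replicate 1) with 3 above, Fos reading 6.96, 5.92 and 6.20 and then 6.80, 7.51 and 7.21 (0.81 ± 0.29). Clock genes had a median of 0.13 over 12, 0.065 with quantile normalization and 0.067 with cyclic loess, and from 0.070 without day 7 replicate 2 to 0.20 without day 4 replicate 1. Their member Nr1d2 differed by 0.50 ± 0.20 (0.31 without day 4 replicate 2); the hour of sampling is not given in the sources used here.

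Limma called 5 of 8630 genes (0.0579%) for a difference between the step from day 4 to 7 and that from day 7 to 9, which share the day 7 arrays. Intelectin 1 (Itln1) read 5.40, 5.75 and 6.05 on day 4, 5.29, 5.23 and 5.24 on day 7, and 7.34, 7.53 and 7.46 on day 9. Day 7 was the lowest age and day 9 lay far above both, so that the first step was smaller by 2.67 ± 0.27 on the log2 scale (adjusted p = 8.96e-05). The alpha-defensin Defa39 (difference of steps -2.18 ± 0.32, limma adjusted p = 0.00812) and the Paneth cell lysozyme Lyz1 (-1.27 ± 0.20, 0.0138) followed it: Defa39 stood at 5.54, 5.62 and 7.88 and Lyz1 at 9.00, 8.71 and 9.69 as means of days 4, 7 and 9. For Pigr the difference was -1.93 ± 0.26 (0.00298), as it stood at 9.24, 8.46 and 9.62. Anxa8 was the fifth. Also large but not called were the differences of steps of Reg3g (-3.68 ± 1.03, adjusted p = 1.00) and Reg3b (-2.22 ± 0.69, the same). Their day 9 arrays ran from 6.28 to 9.56 and from 9.27 to 11.46. Itln1, Defa39, Lyz1 and Pigr rose from day 7 to 9 and are the 4 genes called there (0.0463%). Probe sets of alpha-defensins and of the 2 lysozymes can read near-identical transcripts.

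Without day 7 replicate 2 or day 7 replicate 3 only Itln1 was called in that test, and without day 9 replicate 2 the count was 3; Itln1 passed in all 13 alternatives. Lyz1 was lost also with quantile normalization (adjusted p = 0.0916) and without day 7 replicate 1 (0.0713), and Lyz1 and Defa39 with only the 12 arrays of days 4 to 11 (0.0563 each). Against the step from day 9 to 11, which shares no array with the first, 3 genes (0.0348%) differed: Anxa8, Rsrp1 and Itln1 (-1.48 ± 0.22, limma adjusted p = 0.0112). That count was 0 without day 4 replicate 2, day 7 replicate 2, day 9 replicate 1 or day 11 replicate 3 (494, 482, 564 and 471 genes at an unadjusted p below 0.05), 7 without day 4 replicate 1, 6 without day 9 replicate 2 and 8 without day 11 replicate 1. Sectm1b (-1.30 ± 0.24) and Pm20d1, an enzyme that makes N-acyl amino acids (1.06 ± 0.20), came next at adjusted p = 0.0882 each.

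**Figure D5:**
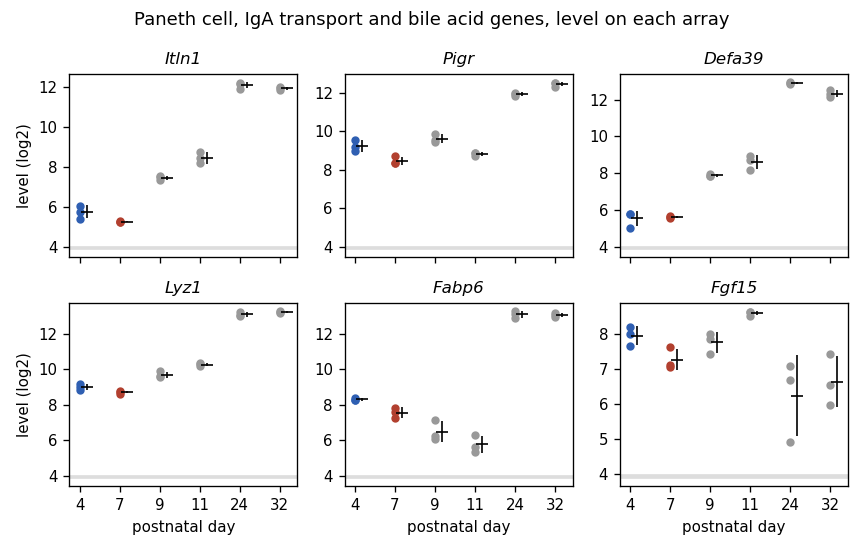
Log2 level on every array at each postnatal day (ages evenly spaced; day 4 blue, day 7 red, other days grey) for Itln1, Pigr, Defa39, Lyz1, Fabp6 and Fgf15, with the mean and SD of 3 arrays in black and the range of array medians as a grey band. Itln1, Pigr, Defa39 and Lyz1 climb from day 7 to day 9 and not from day 4 to day 7, while Fabp6 goes down from 8.30 on day 4 to 5.77 on day 11.

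Other secretory cells and neighbouring organs added little. The goblet cell list had a median of 0.03 over 14 and the enteroendocrine list 0.04 over 12, changing sign in 1 and 2 of 12 alternatives. Of the 12 enteroendocrine genes 5 had negative differences, and the values ran from -0.57 to 0.36. On all arrays 3 of them lay above day 4 (1 under quantile normalization) and 1 below. Scg2 at 0.36 ± 0.12 and Scg3 at 0.28 ± 0.13 were among those above. Pancreatic acinar genes lay below: Cela1 read 6.97, 7.89 and 7.48 and then 6.88, 6.55 and 6.06 (-0.95 ± 0.29), and Clps differed by -0.34 ± 0.12. Of 12 acinar markers 2 reached log2 6 on these days, with Cpa1 and Cel at 3.28 or less as means of either day, and the mean level of the list was 4.42 to 4.63 on day 4 and 4.19 to 4.29 on day 7. The part of this tissue in the lower fat absorption genes was not tested. Lpl, a lipase of adipocytes and other cells, differed by 0.68 ± 0.29 (0.37 when its probe sets were averaged). It was the largest rise among 7 tested adipocyte genes, of which 4 had negative differences, and their median was -0.02. Igfbp6 differed by 0.52 ± 0.22 (0.25 without day 4 replicate 1).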

How the data were processed

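RNA from whole ileum pieces was hybridised to Affymetrix GeneChips, 1 mouse per array. Each deposited value is a log2 level of a probe set. RMA is the tool that the submitters' processing notes name, without a version. RMA subtracts background and equalises array distributions, which compresses differences of dim probe sets. Of 45101 probe sets 64 were controls and 34945 had 1 gene symbol; those with several (932) or none listed (9160) were left out. Genes reaching log2 6 on at least 3 of 18 arrays were kept: 8630 of 18193. The number of arrays limits the precision.

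Age (6 levels) was fitted with limma 3.58.1 in R 4.3.3 on all 18 arrays (12 residual degrees of freedom), and p-values were Benjamini-Hochberg adjusted over all genes tested. The fit was tested on simulated data, where it called 21 of 50 changes of 0.5 on the log2 scale (42%) and 48 of 50 changes of 1 (96%). Named genes were the called ones, then the non-overlapping genes with smallest p up to 12 each way, up to 2 members per list at unadjusted p below 0.05, sentinels, and the top 5 of each test between steps. Members and lists were chosen with earlier results of these data known. Alternatives changed the filter, probe set rule, scaling, eBayes options, weights, arrays used, threshold and covariates; the hybridization block for the tests between steps and for list medians was chosen after seeing the data.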

Additional observations from a re-analysis of the deposited data

Results flagged for a closer look

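The genes below had a step from day 4 to day 7 that differed from a later step in limma's test of the difference itself (log2 scale, adjusted p below 0.05 over 8630 genes). Against the step from day 7 to 9 the differences were -2.67 for Itln1, -1.93 for Pigr, -2.18 for Defa39, -1.27 for Lyz1 and 1.68 for Anxa8. Against the step from day 9 to 11 they were -1.48 for Itln1, 1.50 for Anxa8 and 1.23 for Rsrp1. Only the Itln1 call of these last 3 held with hybridization group as a block; Anxa8 and Rsrp1 then stood at adjusted p = 0.0609.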

How the results depend on the processing

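With 3 arrays per age the count of 7 called genes moved with most choices: 11 at an adjusted p below 0.1, 2 with a filter at log2 8, 1 when a gene's probe sets were averaged, 4 with cyclic loess, 4 with Xist as a covariate, 3 with hybridization group as a block, 0 with only the 6 arrays (limma; 610 at an unadjusted p below 0.05) and 114 with array weights, whose estimation did not converge. Leaving out 1 array gave 0 to 9. The count of 5 genes for the step from day 7 to 9 was 3 with quantile normalization and 3 with the 12 arrays of days 4 to 11. It ran from 1 (without day 7 replicate 2, or 3) to 5 with 1 array left out. The count of 3 for the step from day 9 to 11 was 5 with quantile normalization and 1 with hybridization group as a block. It ran from 0 (without day 4 replicate 2, day 7 replicate 2, day 9 replicate 1 or day 11 replicate 3) to 8 (without day 11 replicate 1). The causes were not tested.

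Of 1392 values of the 76 named genes under alternatives, 1277 kept direction and side of the threshold, 67 no longer passed, 33 newly passed and 15 changed sign. The sign changes were in 5 genes, none of them called: Defa39 (-0.052 with quantile normalization, -0.032 with array weights), Treh (0.040 with hybridization group as a block), Igf2 (0.0049 with quantile normalization, 0.00082 with Xist as a covariate), Reg3b and Xist. With 1 array left out their values ran from -0.17 to 0.22 for Defa39, -0.12 to 0.075 for Treh, -0.11 to 0.082 for Igf2, -0.55 to 0.088 for Reg3b and -1.62 to 1.96 for Xist. Of 708 list medians under alternatives 633 moved by less than the spread between arrays and 75 by more. For some lists that spread exceeded the median, so a median could change sign and still count as moving by less. Lysosomal hydrolases changed sign in 7 of 12 alternatives, and glucocorticoid-induced genes and vacuolar ATPase subunits in 6 of 12 each. In these lists 0 medians moved by more than the spread. No paired analysis was possible because day 4 and day 7 share 0 title numbers. Day 7 replicate 3 and day 9 replicate 2 carry the same title number. They were treated as separate mice, with Xist at 4.69 on the first and 9.74 on the second. Signal near background limits the dim genes.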
